A study of Mus musculus with 3 samples.

Results

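The messenger RNA of B16-F1, a mouse skin melanoma line, was set against that of 4T1, a mouse mammary carcinoma line, gene by gene. Genes were matched by symbol, with a level of 0 where a table has no entry, and were compared when their FPKM (fragments per kilobase of transcript, scaled to the library total) reached 1 in either line. This kept 11547 of the 14860 named genes listed by either table, against 11944 genes at FPKM 1 or more in any of the 3 lines of the series. B16-F1 comes from C57BL/6J mice and was grown in DMEM, and 4T1 comes from BALB/cfC3H mice and was grown in RPMI, both with 10% fetal bovine serum. Total RNA came from frozen cell pellets and was enriched for polyadenylated RNA with oligo(dT). Each line has 1 library, so tissue of origin, strain, medium and library cannot be told apart. Every difference given here is a difference of size between 2 libraries, with no replicate check and no test.

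Melanocytes derive from the neural crest, make melanin inside lysosome-related organelles called melanosomes, and pass these along actin and microtubules. Mammary carcinoma cells derive from an epithelium whose cells are held together by claudins, E-cadherin and desmosomes and rest on a laminin-rich basement membrane. Many of the protein families that serve adhesion, transport and signalling have members used by one of these cell types and other members used by the other.

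The tables summed to 9098072 expected counts in B16-F1 and 8968897 in 4T1, so 1 count on a transcript of 1 kilobase was worth an FPKM of 0.110 and 0.111. All 6 melanocyte markers reached FPKM 1 in B16-F1, with a summed FPKM of 10106 there against 1.34 in 4T1. All 6 epithelial markers reached FPKM 1 in 4T1, with a sum of 1360 against 0.44 in B16-F1. Leukocyte markers summed to 2.83 and 19.6, and 5 of the 8 were at 0 in 4T1, among them Ptprc, which marks all leukocytes. Markers of fibroblasts summed to 4.20 in B16-F1 and 9.64 in 4T1, those of red cells to 7.59 and 0.06, those of keratinocytes to 0.15 and 3.79, and those of endothelium and muscle to at most 1.17 in either line. The libraries carry the markers of their labelled tissues. Their sums of FPKM differed, at 466033 in B16-F1 and 601329 in 4T1, so that rescaling to TPM moved the median difference of all genes from 0.03 to 0.38 in log2(value + 1).

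Genes were called when log2(FPKM + 1) differed by 2 or more between the lines (4-fold). By this rule 729 genes were higher in B16-F1 (6.31% of those compared) and 858 were higher in 4T1 (7.43%), together 13.7%. Under TPM the counts were 1188 and 909, which turns the share of calls that were higher in B16-F1 from 45.9% to 56.7%. Most genes were alike: 7227 of them (62.6%) lay within 2-fold. The difference over all genes had a median absolute value of 0.73. Of the genes past the rule, 232 of those higher in B16-F1 were not listed in 4T1, and 222 of those higher in 4T1 were not listed in B16-F1. A sharper on-or-off pattern, FPKM 10 or more in one line and under 0.1 in the other, was found for 139 genes in B16-F1 and for 167 genes in 4T1. At the entry threshold the lowest gene compared had FPKM 1.0 and the highest gene left out 0.99. At the rule, the closest differences inside and outside were 2.002 and 1.998 toward B16-F1.

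**Figure D1:**
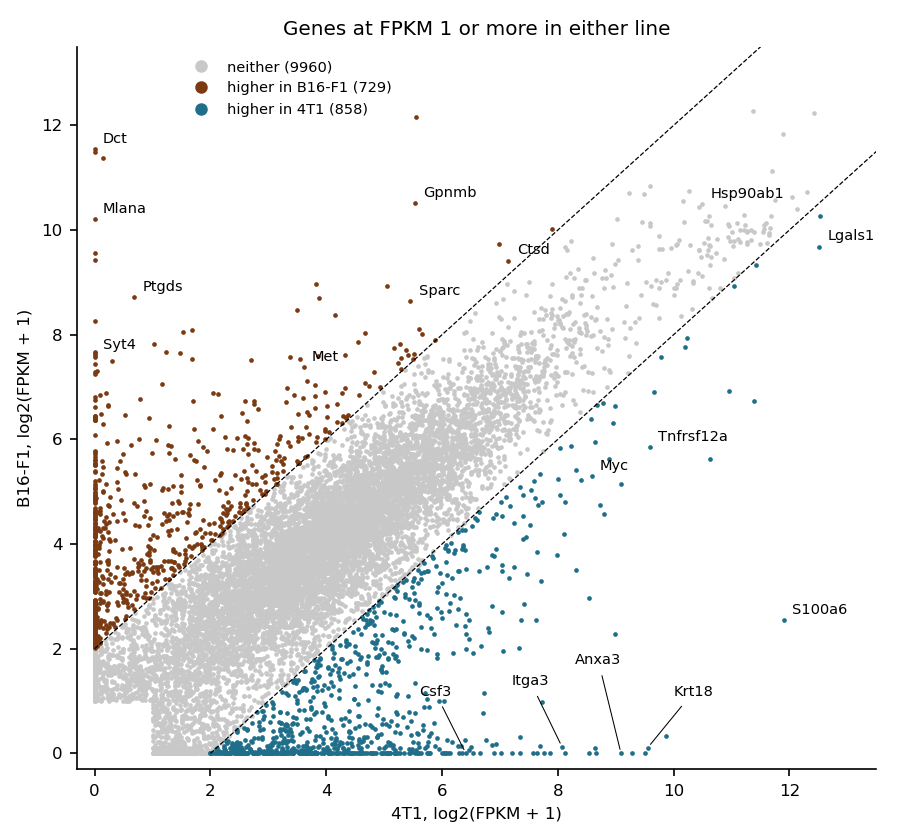
Each point is 1 of the 11547 genes compared, with its log2(FPKM + 1) in 4T1 on the horizontal axis and in B16-F1 on the vertical axis, and dashed lines mark the 4-fold rule. The 729 genes higher in B16-F1 (brown) and the 858 higher in 4T1 (blue) lie to both sides of a band of genes near the diagonal, many of them on an axis, where the other library does not list the gene.

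The leading genes toward B16-F1 included melanocyte genes and genes outside pigmentation. Dct, an enzyme of melanin synthesis, had FPKM 3007 and was not listed in 4T1, at least 20485-fold lower there (3 counts taken as the limit of an unlisted gene). Sectm1a, a gene outside pigmentation, had 756 and was not listed in 4T1, at least 6425-fold lower; its expected count is not whole, so its level is less certain. Tspan10, a tetraspanin of pigment cells, had 174 and was also not listed in 4T1. Ptgds, which makes prostaglandin D2, had 421 against 0.60 (ratio 701, 95% counting interval 274 to 2575). Bace2, a protease that processes the melanosome fibril protein, had 98.0 and Glrb, the beta subunit of the glycine receptor, had 86.8, and neither was listed in 4T1. Trf, the iron carrier transferrin, had 85.7 in B16-F1, and Bfsp2, known as a filament protein of the lens, had 106, again with no listing in 4T1. Plagl1, an imprinted zinc finger factor, had 118 against 0.15. The levels of these genes in B16-F1 were below that of Dct.

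In the other direction secreted and surface proteins led. Wfdc2, a secreted protein of epithelial ducts, had FPKM 730 in 4T1 and was not listed in B16-F1, at least 1567-fold lower. S100a6, a small calcium-binding protein, had 3849 in 4T1 against 4.82 (ratio 798, interval 556 to 1193). Anxa3, an annexin that binds membranes in the presence of calcium, had 545 and was not listed in B16-F1. Itga3, the laminin-binding integrin alpha 3 chain, had 269 against 0.09. Msln, the surface protein mesothelin, had 190 and Chrnb1, an acetylcholine receptor subunit, had 118 in 4T1, and neither was listed in B16-F1. Spp1, the secreted matrix protein osteopontin, had 161 against 0.24, and Igfbp7, a secreted binding protein of insulin-like growth factors, had 207 against 0.10. Axl, a receptor kinase for Gas6, had 212 against 0.97 (ratio 219, interval 162 to 303).

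The promoters of the leading genes were read for short motifs of factors that belong to each cell type: the M-box core TCATGTG, bound by the melanocyte factor MITF, the E-box CACGTG, the AP-1 site TGANTCA, the TEAD site GGAATG and the TATA box TATAAA, each on both strands. Promoters, 250 bases before the start, came from RefSeq (GRCm38.p6). These were read for 16 of the 25 leading B16-F1 genes and for 19 of the 25 leading 4T1 genes. The other leading genes, Syt4 among them, were left out of this reading, and some of them may still have a promoter entry. The motif counts therefore hold for the 16 and the 19 only. The M-box core was in 3 of the 16 and in 0 of the 19, the E-box in 3 and 0, the AP-1 site in 2 and 2, the TEAD site in 1 and 3, and the TATA box in 0 and 3. The AP-1 site was thus also in promoters of leading B16-F1 genes (Ptgds and Bfsp2), as was the TEAD site (Insc). The sequences below show genes with a match and large differences, namely Dct, Tyrp1 and Tspan10 from B16-F1 and Cldn4 (a claudin) and Ankrd1 (a known target of YAP and TEAD) from 4T1. Capitals mark a motif, each written 5′ to 3′ on the strand of the gene, so CACATGA is the M-box core on the opposite strand.
Dct, chr14:118052247-118052496, minus strand: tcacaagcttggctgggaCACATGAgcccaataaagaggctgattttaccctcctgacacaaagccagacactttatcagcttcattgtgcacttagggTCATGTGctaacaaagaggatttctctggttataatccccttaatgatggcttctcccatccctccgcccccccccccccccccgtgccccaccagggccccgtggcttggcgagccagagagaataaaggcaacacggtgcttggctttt
Tyrp1, chr4:80833963-80834212, plus strand: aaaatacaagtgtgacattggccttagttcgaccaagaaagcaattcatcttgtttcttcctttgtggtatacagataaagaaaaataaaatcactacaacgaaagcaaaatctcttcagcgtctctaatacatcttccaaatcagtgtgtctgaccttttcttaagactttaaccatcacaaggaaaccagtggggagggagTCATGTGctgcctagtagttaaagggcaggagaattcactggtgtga
Tspan10, chr11:120442381-120442630, plus strand: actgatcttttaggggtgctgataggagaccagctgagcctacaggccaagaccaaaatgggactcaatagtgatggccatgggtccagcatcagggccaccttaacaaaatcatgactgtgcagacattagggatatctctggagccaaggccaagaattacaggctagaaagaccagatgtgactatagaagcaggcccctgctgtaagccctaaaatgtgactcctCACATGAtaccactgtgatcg
Cldn4, chr5:134946935-134947184, minus strand: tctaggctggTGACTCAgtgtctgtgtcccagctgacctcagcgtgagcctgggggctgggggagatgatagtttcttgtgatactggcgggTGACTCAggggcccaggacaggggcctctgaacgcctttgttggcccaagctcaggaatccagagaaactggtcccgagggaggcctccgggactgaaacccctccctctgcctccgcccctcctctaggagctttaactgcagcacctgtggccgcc
Ankrd1, chr19:36119845-36120094, minus strand: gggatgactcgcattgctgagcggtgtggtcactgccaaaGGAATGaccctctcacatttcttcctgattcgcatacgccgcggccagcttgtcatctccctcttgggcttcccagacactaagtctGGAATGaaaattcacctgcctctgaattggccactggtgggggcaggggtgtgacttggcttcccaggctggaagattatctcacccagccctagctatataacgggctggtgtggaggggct
Dct holds the M-box core 2 times, and Tyrp1 holds it 47 to 41 bases before the start. Cldn4 holds the AP-1 site 2 times and Ankrd1 the TEAD site 2 times, while Tspan10 holds 1 M-box core close to the start.

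Over all genes with a promoter entry the motifs were uncommon. The M-box core was in 3.55% of the 564 promoters of genes higher in B16-F1, in 1.90% of the 633 of genes higher in 4T1, in 1.54% of the 8115 of genes past the rule in neither direction, and in 3.22% of all 27025 promoters of the table. The AP-1 site was in 9.0% of promoters of genes higher in 4T1, in 4.43% of those higher in B16-F1, in 3.75% of those past the rule in neither direction and in 6.87% of all promoters. The TEAD site was in 14.7%, 12.9%, 9.76% and 12.6% in the same order, and the TATA box in 9.95%, 8.33%, 5.52% and 13%. The E-box CACGTG was in 5.69%, 9.04%, 9.07% and 6.05%. Base composition moves with these shares: the median promoter held 12 CpG pairs for genes higher in 4T1, 15 for those higher in B16-F1, 17 for the rest and 6 over the whole table, and its part in the shares was not tested. The 2 groups past the rule held the TATA box and the TEAD site more often than the remaining genes, and the M-box core and the AP-1 site differed between the groups in opposite directions.

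Gene families were then described with 91 lists, 90 of which had at least 5 members compared, covering 3172 of the genes. In 66 of the 90 lists some members were higher in B16-F1 and others higher in 4T1. Since 6.31% and 7.43% of all genes passed the rule, a long list can hold both kinds whatever its members. No background was computed for this count. The median difference reached 1 or more in 1 list (toward B16-F1) and was -1 or lower in 18 lists (toward 4T1), beside a median of 0.03 over all genes. Many lists had a median near 0, with different members past the rule on each side.

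**Figure D2:**
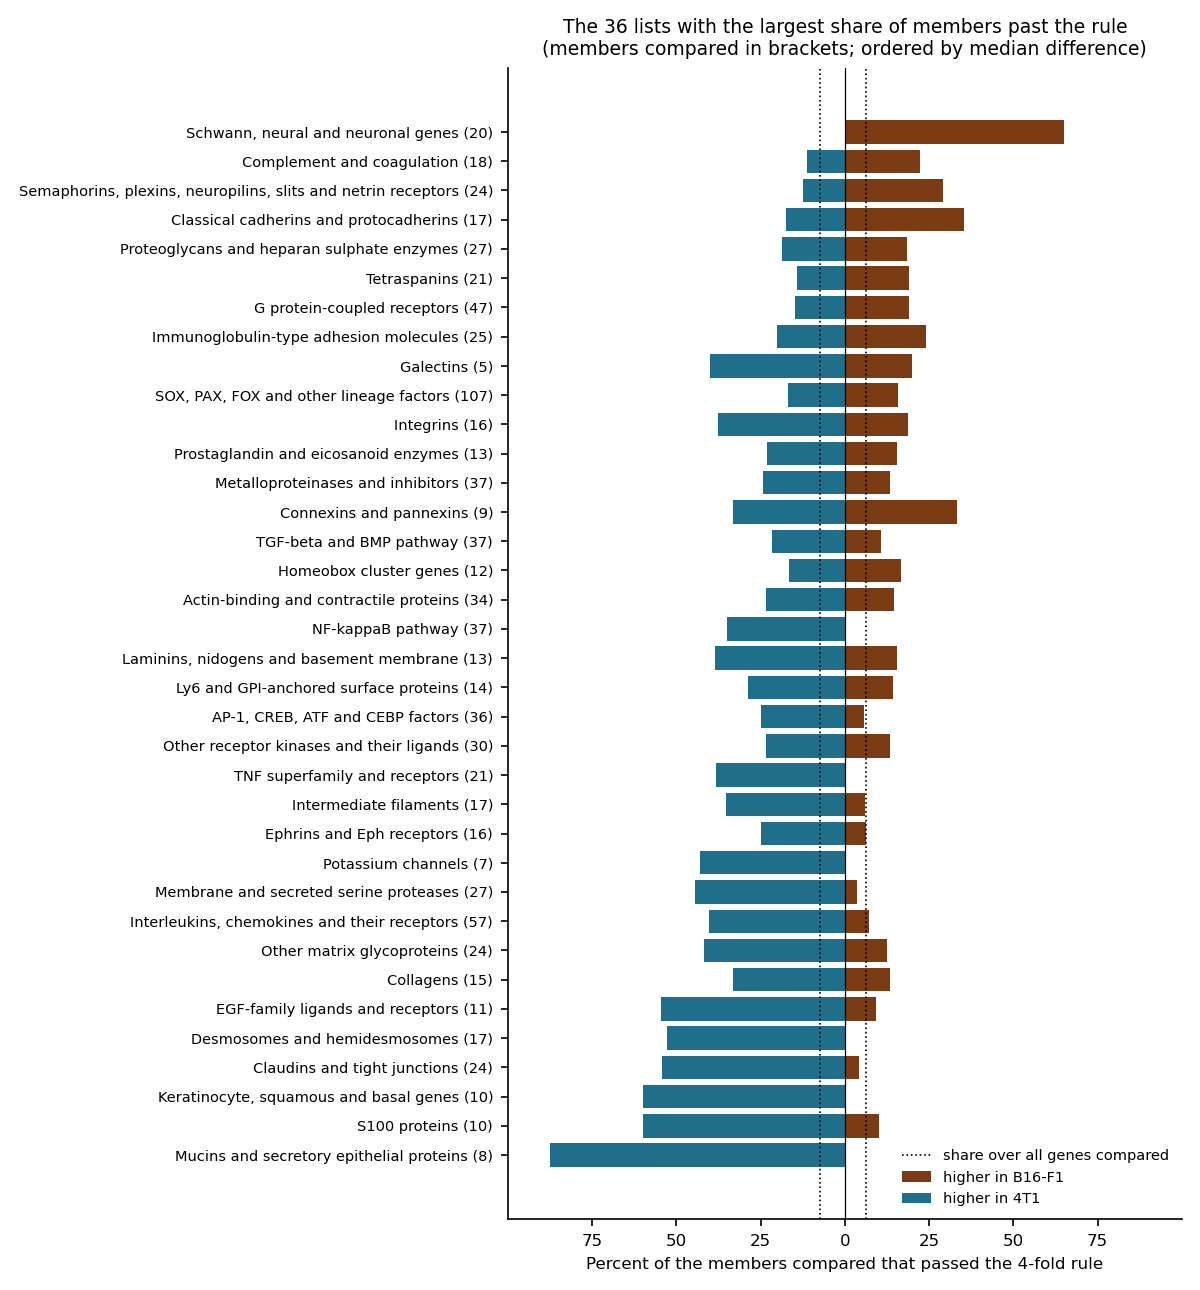
Bars give the percent of the compared members of a list that were higher in B16-F1 (brown, right) or higher in 4T1 (blue, left), for the 36 lists with the largest shares, and dotted lines give the shares over all genes, 6.31% and 7.43%. Lists at the bottom, such as S100 proteins and claudins, lean to 4T1, and the Schwann and neural list leans to B16-F1. Many of the lists between have bars to both sides. Others, such as potassium channels, the TNF family and the NF-kappaB list, have none toward B16-F1.

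In adhesion families different members passed the rule in each line. Among connexins, which form the channels between neighbouring cells, Gjb2 had FPKM 81.7 in B16-F1, Gja3 had 12.6 there, and neither was listed in 4T1. Gja1, the most widespread connexin, had 3.13 against 42.2, and Gjc1 was alike at 23.2 and 27.4. Of 9 connexins and pannexins compared, 3 were higher in B16-F1 and 3 in 4T1. Among 17 cadherins, 6 were higher in B16-F1 and 3 in 4T1. The melanoma library held Cdh19, a cadherin of the Schwann cell lineage, at 45.5 and Cdh2, N-cadherin, at 23.3, with neither listed in 4T1, whereas Cdh1, E-cadherin, had 0.20 against 83.8 (ratio 419, interval 212 to 971). Clustered protocadherins split as well, with Pcdhgb2 at 32.0 against 0.33 and Pcdhgc3 at 0.17 against 17.8.

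The receptors and ligands of the matrix followed the same layout. Among 16 integrin chains, Itga4, which pairs with beta 1 to bind VCAM1 and fibronectin, had 22.8 in B16-F1 against 0.25, and Itga9 had 6.31 and was not listed in 4T1. Itga3 (above), Itgb4 of the hemidesmosome (0.44 against 22.8) and the collagen-binding chain Itga2 (not listed against 4.89) were higher in 4T1. In all, 3 integrin chains were higher in B16-F1 and 6 in 4T1. Vcam1, a ligand of alpha 4 integrin, had 0.07 in B16-F1 and 30.8 in 4T1, so receptor and ligand were high in different lines. Of 13 laminins and basement membrane genes, Lama4 (21.8, not listed in 4T1) and the linker Nid1 (9.70 against 0.20) were higher in B16-F1. Lamb3 (not listed against 28.0), a chain of the epithelial laminin 332, Lama5 (5.0 against 62.9) and Lamb1 (12.6 against 118) were higher in 4T1. Collagens leaned to 4T1, with 5 of 15 higher there and 2 higher in B16-F1 (median difference -1.77). Col7a1, the anchoring fibril collagen, had 0.20 against 66.9, and Col18a1, a basement membrane collagen, had 0.11 against 52.3, while Col15a1, related to it, had 6.28 against 0.02. That median was 0.03 when no filter on low values was used.

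Secreted matrix proteins split by family too. Fbln1 had 77.6 in B16-F1 against 0.10 and Fbln5 had 27.6 and was not listed in 4T1, whereas Fbln2 had 0.13 against 122. All of these fibulins are glycoproteins of elastic fibres and basement membranes. Ltbp1, which holds latent TGF-beta in the matrix, had 0.11 against 31.9 and Loxl4, an amine oxidase that cross-links collagen, had 0.02 against 43.9. Ctgf, a matricellular protein, had 3.58 against 87.7. Of the 24 matrix glycoproteins compared, 10 were higher in 4T1 and 3 in B16-F1.

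**Figure D3:**
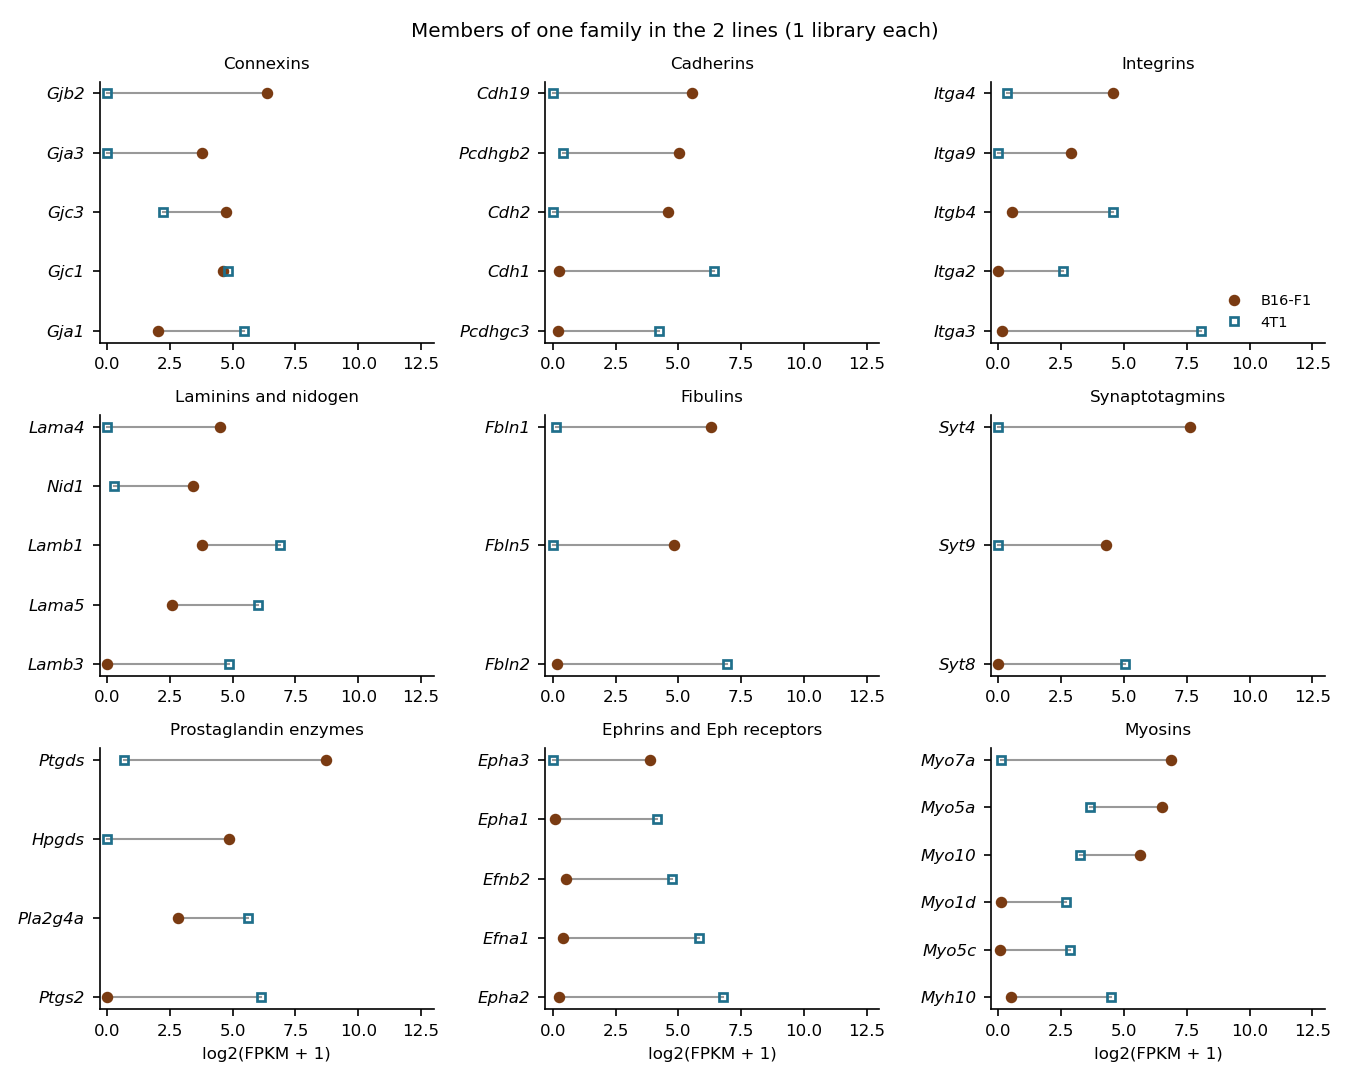
Each row is 1 gene, with its log2(FPKM + 1) in B16-F1 (brown dots) and in 4T1 (blue open squares), grouped in 9 panels by family. In each panel some members lie to the right in B16-F1 and others in 4T1, as Gjb2 (FPKM 81.7 against no listing) and Gja1 (3.13 against 42.2) do among connexins.

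Epithelial junction and serine protease genes that passed the rule were nearly all on the 4T1 side. Of 24 claudin and tight junction genes 13 were higher in 4T1 and 1 in B16-F1 (median difference -2.88, but -0.69 with no filter on low values). Lsr, which marks contacts of 3 cells, had 0.11 against 79.4, and the tight junction plaque protein Cgn had 0.70 against 45.1. Of 17 desmosome and hemidesmosome genes 9 were higher in 4T1 and 0 in B16-F1. Perp, a desmosomal membrane protein, had 0.06 against 61.1, and Dsp, the linker to keratin, had 0.02 against 13. Of 27 genes for serine proteases and their inhibitors 12 were higher in 4T1 and 1 in B16-F1. St14, the membrane protease matriptase, had 52.8 in 4T1 and was not listed in B16-F1. Its inhibitors Spint1 (0.30 against 46.9) and Spint2 (not listed against 280), counted among the 12, were high in the same line. So was Plau, the urokinase protease (0.72 against 42.4). Htra1, a secreted protease, had 147 and was not listed in B16-F1.

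Among small calcium-binding and membrane-binding proteins, the S100 family had 6 of 10 members higher in 4T1 and 1 higher in B16-F1 (median difference -3.33). Their summed FPKM was 321 in B16-F1 and 7239 in 4T1. S100a4 had 3.86 against 510, S100a11 had 121 against 1990 and S100a10, the partner of annexin A2, had 119 against 807. S100b, a marker of Schwann cells and melanocytes, was the exception at 23 against 0.07, and S100a1 was alike at 36.5 and 40.6. Of 10 annexins 3 were higher in 4T1 and 0 in B16-F1, with Anxa1 at 102 against 437 and Anxa5 alike at 280 and 331. Of 5 galectins, which bind galactose-containing glycans, Lgals1 (822 against 5860) and Lgals3 (60.7 against 401) were higher in 4T1 and Lgals9 (60.9 against 13.1) was higher in B16-F1.

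Melanosome transport genes were among those higher in B16-F1. Of 25 genes for organelle biogenesis 5 were higher in B16-F1 (20%) and 0 in 4T1. Mlph, which links Rab27a to myosin Va on melanosomes, had 179.5 against 0.23, Rab27a itself had 75.7 against 1.43, and the motor Myo5a had 91.4 against 11.7. All 3 parts of that complex were thus higher in the melanoma library. Rab38, which sends enzymes to melanosomes, had 199, with no listing in 4T1, whereas Rab25, a Rab of epithelial recycling endosomes, had 0.22 against 15.9. Of 47 Rab genes 5 were higher in B16-F1 (10.6%) and 1 in 4T1 (2.13%), with a median of 0.17. One of the 5, Rab44, is uncertain, since its row also carries the annotation of the ribosomal protein L35Ae. Among myosins, Myo7a had 115 in B16-F1 against 0.06, while the non-muscle myosin heavy chain Myh10 had 0.40 against 21.5. In each line 3 of 24 myosins were higher (12.5%, median -0.36). Syt4, a synaptotagmin of secretory vesicles, had 194 and Syt9 had 18.6 in B16-F1 with no listing in 4T1, and Syt8 had 32.0 in 4T1 with no listing in B16-F1. Among 44 synaptotagmin and exocytosis genes 5 were higher in B16-F1 (11.4%) and 3 in 4T1 (6.82%), with a median of 0.11. The shares over all genes were 6.31% and 7.43%, so as a whole this list lay near them. Of 29 kinesins, which move cargo along microtubules, 4 were higher in B16-F1 (13.8%) and 0 in 4T1, led by Kif21b (32.9 against 0.82). Tubb3, a tubulin of neurons, had 108 against 0.72.

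Proton pump and lysosomal genes also passed the rule. Of 19 subunits of the vacuolar proton pump, which acidifies lysosomes and melanosomes, 4 were higher in B16-F1 and 0 in 4T1 (median difference 0.72). Atp6v0e2 had 61.3 against 2.44, Atp6v0a1 had 59.3 against 7.92 and Atp6v1a, a catalytic subunit, had 74.3 against 11.6. Of 50 lysosomal genes 6 were higher in B16-F1 (12%) and 2 in 4T1 (4%), beside 6.31% and 7.43% over all genes. Gpnmb, a membrane glycoprotein of melanosomes and lysosomes, had 1464 against 45.4 (ratio 32.3, interval 30.7 to 34), Hexa, a hexosaminidase chain that breaks down gangliosides, had 186 against 10.7, and Lipa, the lysosomal lipase, had 36.6 against 2.40. Acp5, an acid phosphatase, was on the other side at 0.25 against 24.2. Cathepsins split, with the aspartic protease Ctsd at 682 against 141 and the cysteine proteases Ctsl at 41.7 against 317 and Ctsh at 3.0 against 48.8.

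Channel and carrier genes past the rule lay on both sides. Of 31 calcium, sodium and TRP channels 6 were higher in B16-F1 (19.4%) and 2 in 4T1 (6.45%). For 7 potassium channels the counts were 0 and 3 (42.9%). They were 4 (13.8%) and 3 (10.3%) for 29 glucose, lactate and organic anion carriers. For 25 bicarbonate, phosphate and proton exchangers they were 3 (12%) and 2 (8%), and for 38 metal handling genes 3 (7.89%) and 8 (21.1%). The shares over all genes were 6.31% and 7.43%. Trpm1, a channel of melanocytes, had 35.7 and was not listed in 4T1, and Trpv2 had 19.3 against 0.71, while Trpv4, a cation channel that responds to osmotic swelling, had 0.24 against 28.3. The calcium-activated potassium channel Kcnn4 (42.6) and the background potassium channel Kcnk1 (23.1) were in 4T1 with no listing in B16-F1. The lactate exporter Slc16a3 had 43.3 in B16-F1 against 0.10, and the prostaglandin carrier Slco2a1 had 21.8 in 4T1 with no listing in B16-F1. Slc24a5, an exchanger of melanosomes, had 332 against 16.7. The zinc carriers Slc39a5 (18.7) and Slc39a4 (11.8) were listed in 4T1 and not in B16-F1, and Atp7a, which supplies copper to tyrosinase, had 17.9 against 1.41.

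Of 13 prostaglandin and eicosanoid enzymes 2 were higher in B16-F1 (15.4%), 3 in 4T1 (23.1%) and 8 in neither, with a median difference of -0.17. Pla2g4a, which frees arachidonic acid, had 6.12 in B16-F1 and 47.4 in 4T1. Ptgs2, the inducible cyclooxygenase, had 68.1 in 4T1 and was not listed by that symbol in B16-F1. The synthases that make prostaglandin D2 were higher in B16-F1, with Ptgds at 421 (above) and Hpgds at 28.1 in B16-F1 with no listing in 4T1. A row with no symbol in B16-F1 that has the same annotation as Ptgs2 had FPKM 1.94.

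Growth factor receptors and ligands included genes high in either line. Erbb3, the neuregulin receptor, had 23.1 against 1.3, while the ligands Hbegf (1.22 against 51.3), Areg (not listed against 17.0) and Nrg1 (not listed against 7.38) were higher in 4T1, together with the feedback inhibitors Lrig1 (0.31 against 46.5) and Errfi1 (5.41 against 47.4). Of 11 genes of that family 6 were higher in 4T1 and 1 in B16-F1. Met, the receptor of hepatocyte growth factor, had 165 against 11.2 (ratio 14.7, interval 13.6 to 16), whereas Axl (above) and the ligand Pdgfb (not listed against 33.3) were higher in 4T1. Among Eph receptors, Epha3 had 13.8 in B16-F1 with no listing in 4T1. Epha2 (0.20 against 108), its ligand Efna1 (0.31 against 55.0) and Efnb2 (0.46 against 26.1) were higher in 4T1, with 4 of 16 genes higher there and 1 in B16-F1. Among 24 semaphorin, plexin and related guidance genes 7 were higher in B16-F1, 3 in 4T1 and 14 in neither (median 0.87). The semaphorin receptor Plxnd1 had 106 against 2.26, Plxna1 had 88.8 against 10.5 and Plxnc1 had 27.7 with no listing in 4T1. The ligand Sema3f had 0.65 against 22.3, and another ligand, Sema3b, had 31.7 against 1.24. Of 27 Wnt ligands, receptors and modulators 2 were higher in B16-F1 (7.41%) and 3 in 4T1 (11.1%), with a median of -0.12, near the values over all genes. The ligands Wnt7b (0.07 against 34.7) and Wnt7a (not listed against 26.3) were higher in 4T1. Dkk3 (14.75, not listed in 4T1) and Axin2, a Wnt target and inhibitor (4.56 against 0.03), were the 2 higher in B16-F1. The co-receptor Lrp6 (24.9 against 5.48) fell just short of the rule, at 1.998 or less.

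Cytokine and NF-kappaB genes that passed the rule were mostly higher in 4T1. Of 57 interleukin and chemokine genes 23 were higher in 4T1, 4 in B16-F1 and 30 in neither (median difference -1.70). That median was -0.33 with no filter on low values and -0.69 with a pseudocount of 5, short of the 1 used for lists. Csf3, the granulocyte growth factor, had 84.2 in 4T1 and was not listed in B16-F1, at least 375-fold lower. Csf1, the macrophage growth factor, had 2.89 against 132, the neutrophil attractant Cxcl1 had 77.8 with no listing in B16-F1, and Il23a, a subunit of interleukin 23, had 0.17 against 53.4. Of 37 NF-kappaB genes 13 were higher in 4T1, 0 in B16-F1 and 24 in neither (median difference -0.85). Those higher include adaptors (Card10, 0.12 against 115), subunits (Nfkb2, 11.1 against 130, and Relb, 3.41 against 41.4) and inhibitors (Nfkbia, 5.58 against 68.6, and Tnfaip3, 0.28 against 28.9). Of 21 TNF family genes 8 were higher in 4T1 and 0 in B16-F1, with Tnfrsf12a, the TWEAK receptor, at 56.8 against 770 and Fas, the death receptor, at 0.22 against 8.68. Among 762 annotation terms from the deposited tables with 20 to 400 genes compared, the lowest medians were those of MHC protein complex (-3.21, with 16 of 20 genes higher in 4T1) and cytokine activity (-2.95, with 15 of 25). The highest was that of transferases of alkyl or aryl groups (1.17, with 9 of 27 genes higher in B16-F1), a term that holds the glutathione transferases. Leukocyte markers moved with these groups only as given above, and their part in the counts was not tested.

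Lineage transcription factors past the rule were divided between the lines. Of 107 lineage factors 17 were higher in B16-F1 (15.9%) and 18 in 4T1 (16.8%), beside 6.31% and 7.43% over all genes. Sox10 (204) and Pax3 (49.6), neural crest factors, and Foxr2 (32.7) had no listing in 4T1, and Mitf, the melanocyte regulator, had 133 against 1.23. Irx2 had 54.4 in 4T1 with no listing in B16-F1, and Twist1, a factor of mesenchymal cells, had 0.07 against 29.2. Of 36 genes of the AP-1, CREB, ATF and CEBP families 9 were higher in 4T1 (25%) and 2 in B16-F1 (5.56%). The 9 included Fosl1 at 199 and not listed in B16-F1, Junb at 8.86 against 208 and Cebpb at 6.08 against 116. Myc had 38.5 against 384 (ratio 9.96, interval 9.27 to 10.7). Of 27 genes on the nuclear receptor list 5 were higher in B16-F1 (18.5%), among them the coactivator Ppargc1a (4.32 against 0.05), and 0 in 4T1. The orphan receptor Nr4a3 had 16.5 in B16-F1 and no listing in 4T1.

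Neural genes formed the one list with a median toward B16-F1 of 1 or more. Of 20 Schwann, neural and neuronal genes 13 were higher in B16-F1 and 0 in 4T1 (median difference 2.78, but 0.35 with no filter on low values). Enpp2, which makes lysophosphatidic acid, had 47.1 against 0.35, Uchl1, a neuronal deubiquitinase, had 19.9 and Dpysl3, a protein of growing axons, had 16.8, and the last 2 had no listing in 4T1. Tubb3, Cdh19 and S100b, given above, belong to the same list. Of 25 genes on the list of keratinocyte, squamous and basal genes 10 were compared, with 6 higher in 4T1 and 0 in B16-F1. Among them were Sfn, known as 14-3-3 sigma (1.06 against 21.4), and Krt14, a basal keratin (0.15 against 20.7). Of the 5 keratinocyte markers, however, only Krt10 (3.79) reached FPKM 1 in 4T1, and Krt5 was not listed there.

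Metabolic lists varied in how many members passed the rule. Of 47 glutathione and redox genes 7 were higher in B16-F1 (14.9%) and 3 in 4T1 (6.38%), beside 6.31% and 7.43% over all genes. Gstp2 had 202 against 1.35, Gsta1 had 63.8 against 0.70 and Gstm1 had 48.2 against 1.61, while Gsto1 had 25.9 against 202, so that different classes of glutathione transferase were high in each line. Of 35 genes for serine, one-carbon and nucleotide synthesis 0 were higher in B16-F1 and 3 in 4T1 (8.57%), the latter near the share over all genes. Psph, the last enzyme of serine synthesis, had 22.9 against 122 and Pycr1, of proline synthesis, had 0.50 against 8.3. Of 50 glycosyltransferase genes 6 were higher in B16-F1 (12%), 3 in 4T1 (6%) and 41 in neither, with a median difference of 0.18. Mgat5, which branches N-glycans, had 87.1 against 0.44 and the sialyltransferase St3gal6 had 95 against 6.06 in B16-F1, whereas B4galnt1, which makes the gangliosides GM2 and GD2, had 0.14 against 33.4 in 4T1. The listed length of Mgat5 differs between the tables (7635 and 3104 bases), so its ratio is less certain. Of 94 nuclear genes of the respiratory chain 0 were higher in B16-F1 and 3 in 4T1, and their median difference was -0.06.

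Cytosolic ribosomal proteins had lower FPKM in B16-F1, mostly by less than the rule. After rows with the same orthology number were summed, which joins gene copies and assembled transcripts, all 79 proteins had a negative difference, from -4.66 to -0.34, with a median of -1.33. Of these, 6 passed the rule. The summed FPKM of the 79 was 71655 in B16-F1 and 187278 in 4T1. These sums were not repeated under TPM, which moved the median of all genes from 0.03 to 0.38. The sign of the smallest differences may therefore depend on the scaling. By symbol alone, 83 genes had a median of -1.22, which was -0.86 under TPM and -0.83 with the length trend (below) removed, both short of 1. Rps6 then stood out toward B16-F1 with 415 against 13.7, and adding rows with no symbol but the same annotation turned its difference to -1.98. The same step ended the call of Rps29 (48.3 against 1579, then 1066 against 1579). Rps20 (105 against 2673) had a listed length of 3446 bases in B16-F1 and 591 in 4T1, which lowers its FPKM in B16-F1. Mitochondrial ribosomal proteins differed less, with a median of -0.42 over 77 genes and 1 higher in each line.

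Few cell cycle and repair genes passed the rule. Of 66 replication and mitosis genes 3 were higher in B16-F1 (4.55%) and 2 in 4T1 (3.03%), below the shares over all genes. Cdk2, a kinase of the entry into DNA synthesis, had 260.5 in B16-F1 against 24.3 (ratio 10.7, interval 9.81 to 11.7), and cyclin E1, Ccne1, had 23.1 against 3.65. Cyclin D1, Ccnd1, had 57.6 against 300.1 and its kinase Cdk6 had 2.38 against 13.6. Cdkn1a, the inhibitor p21, had 63.5 against 8.09. Of 72 repair genes 4 were higher in B16-F1 (5.56%) and 1 in 4T1 (1.39%), below the 6.31% and 7.43% over all genes. The 4 included Fancd2 (23.1 against 2.05) and Brca1 (54.8 against 4.26, with listed lengths of 3696 and 6648 bases). The gene higher in 4T1 was the excision repair gene Ercc1 (20.02 against 151). Of 43 genes of apoptosis 9 were higher in 4T1 (20.9%) and 1 in B16-F1 (2.33%). That one was Gsdmc, a pore-forming gasdermin, at 51.7 with no listing in 4T1, whereas Gsdmd had 0.38 against 8.19 and the death effectors Bok (0.72 against 35.7) and Bcl2l11 (1.0 against 12.2) were higher in 4T1. Among 25 imprinted genes 5 were higher in B16-F1 (20%) and 2 in 4T1 (8%). Sgce (44.6) and Peg10 (27.1), adjacent on chromosome 6, had no listing in 4T1, and Phlda2, a growth-restraining imprinted gene of the placenta, had 0.32 against 35.5.

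Neighbouring genes were sometimes high together. Along the chromosomes, in the order of the 11527 genes with a RefSeq position (GRCm38.p6), 12 runs of at least 4 successive compared genes passed the rule in one direction, 9 toward 4T1 and 3 toward B16-F1, holding 59 genes. On chromosome 5 (90603076 to 91148432) Rassf6, Cxcl5, Cxcl3, Cxcl1, Mthfd2l and Areg ran together, and their FPKM in 4T1 was between 3.05 and 77.8 while only Mthfd2l, at 0.15, was listed in B16-F1. On chromosome 1 (172481573 to 173982844) a run of 7 genes held the interferon-inducible sensors Ifi204 (22.7, not listed in B16-F1), Ifi203 (0.25 against 28.2) and Ifi202b (35.4, not listed in B16-F1). A run on chromosome 4 (140745508 to 140845778) held Padi4 (0.04 against 87.0), Padi3 (7.04, not listed in B16-F1) and Padi1 (0.03 against 7.38), which convert arginine to citrulline, and the predicted gene Gm13032. A further run on chromosome 3 (90560356 to 90658130) held S100a3, S100a4, S100a6 and S100a7a.

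The antigen presentation genes made 2 runs on chromosome 17. One (34119693 to 34216321) held H2-DMa, the immunoproteasome subunits Psmb9 (13) and Psmb8 (69.3), which B16-F1 did not list, and the peptide transporter genes Tap1 (1.17 against 9.11) and Tap2 (0.86 against 50.9). The other (35263094 to 35474563) held H2-D1 (48.7 against 471) and 6 H2-Q genes. Class I genes are near-identical copies that differ between mouse strains, so how reads were divided among them is uncertain. Other runs toward 4T1 held Ifitm3, B4galnt4, Pkp3, Sigirr and Ano9 on chromosome 7, Rad9a, Clcf1, Pold4 and Ssh3 on chromosome 19, and Znhit6, Cyr61, Ddah1 and Bcl10 on chromosome 3, whose members share no family.

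The 3 runs toward B16-F1 were on chromosomes 4, 9 and X. On chromosome 4 (41517691 to 41697091) Fam219a (11.7 against 1.58), Dnaic1 (155, not listed in 4T1), Enho (46.9 against 0.09) and Cntfr, a receptor of ciliary neurotrophic factor (53.9 against 2.84), lay side by side. On chromosome 9 (78230669 to 78347192) were the glutathione transferases Gsta1 (63.8 against 0.70) and Gsta2 (12.9, not listed in 4T1) and the predicted genes Gm3776 and Gm10639. On chromosome X (148857694 to 149984982) were Luzp4 (11.6) and 4 predicted genes at 3.22 to 7.90, and 4T1 listed none of these 5. The members of the last 2 runs are similar copies, so their separate levels are uncertain.

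**Figure D4:**
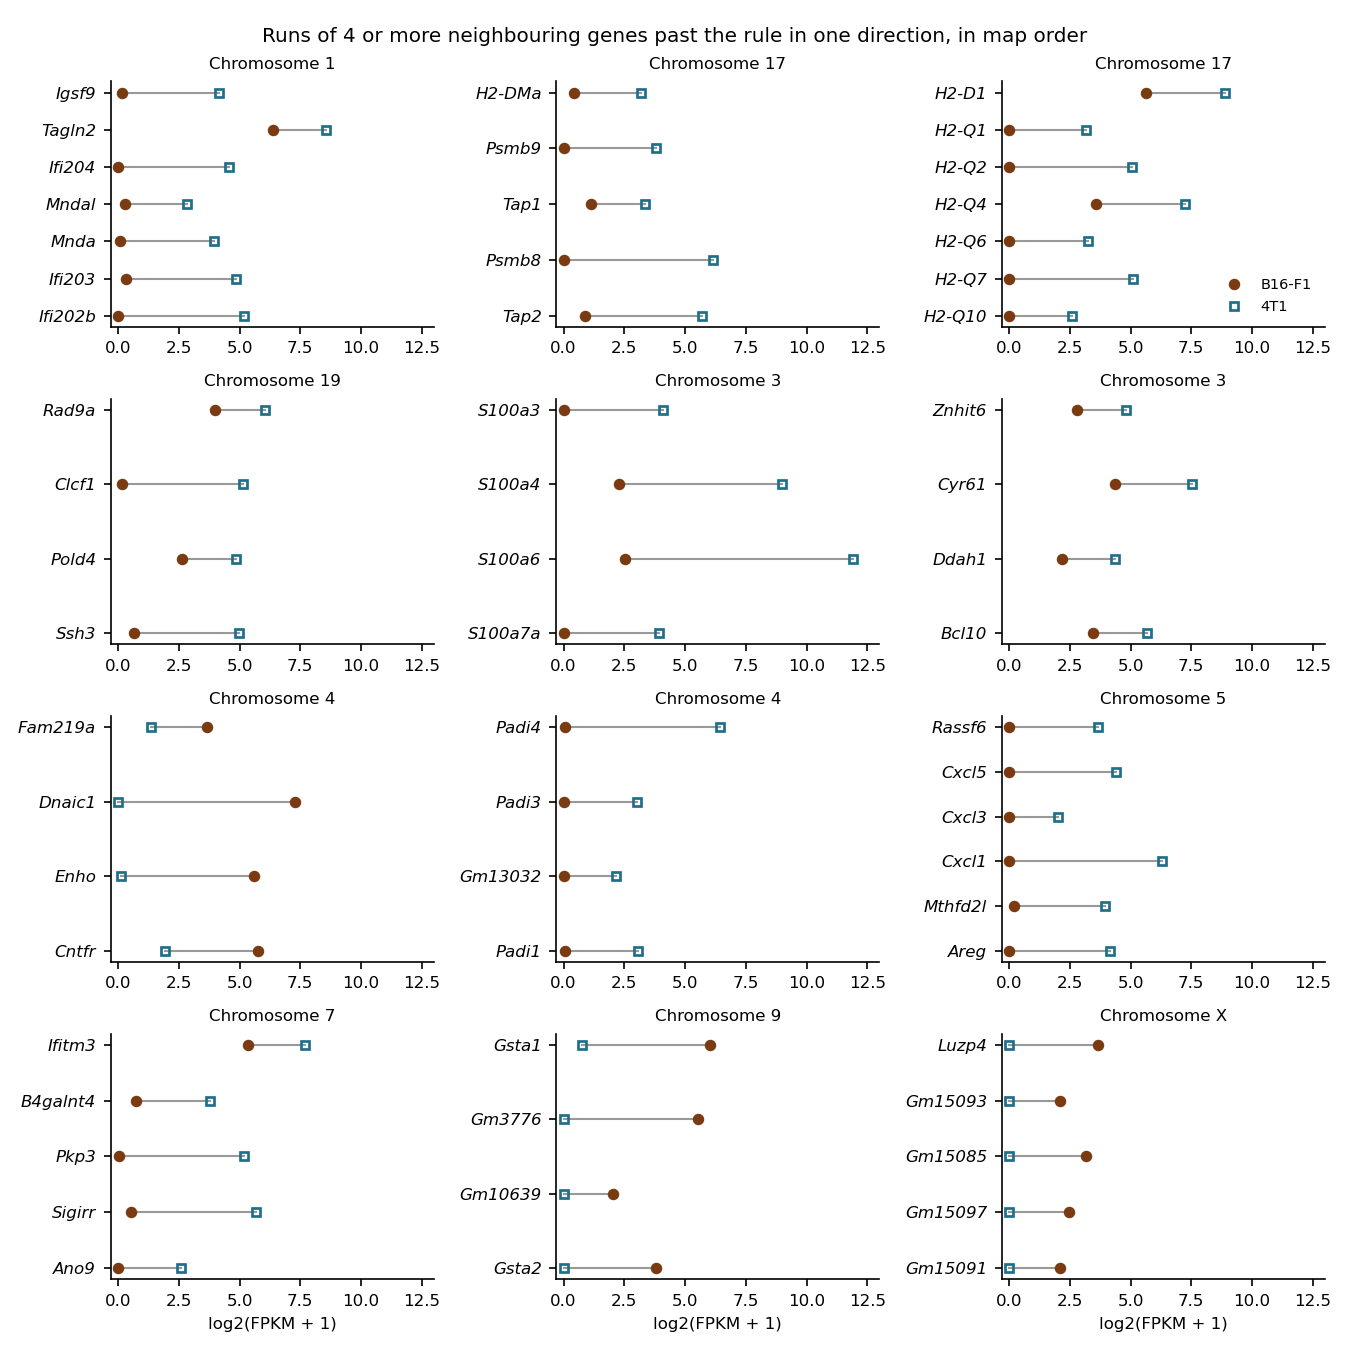
Each panel is 1 of the 12 runs of neighbouring genes, in map order from top to bottom, with log2(FPKM + 1) in B16-F1 (brown dots) and 4T1 (blue open squares). In 9 panels every square lies to the right of its dot and in the other 3 panels, on chromosomes 4, 9 and X, the order is the reverse.

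Whole chromosomes differed as well. The median difference of the 552 genes on chromosome 6 was 0.81, where 76.6% of genes were above 0 against 51.2% of all genes, and 69 genes (12.5%) were higher in B16-F1 against 26 (4.71%) higher in 4T1. Every stretch of 20 Mb along that chromosome had a median between 0.64 and 1.22. Met, Mitf, Gpnmb, Hpgds, Sgce and Peg10, described above, lie on it. Chromosome 19 lay lowest, with a median of -0.50 over 413 genes, and its first 20 Mb had -0.80 while the rest had -0.34 to -0.10. Fosl1, Ankrd1 and Nfkb2 lie on chromosome 19. The medians of the other chromosomes were between -0.30 (chromosome 8) and 0.28 (chromosome X). Over the alternative settings the median of chromosome 6 exceeded that of all genes by 0.46 to 0.86, and that of chromosome 19 was below it in each, at -0.59 to -0.38.

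Transcript length moved with the difference too. The 166 genes with a listed length up to 600 bases had a median of -0.58, those over 2000 and up to 3000 bases had -0.05, and the 1364 genes over 6000 bases had 0.48, with a step up at every bin between. Of the longest genes 9.38% were higher in B16-F1 and 4.18% in 4T1, and of the shortest 2.41% and 10.2%. Lists of short genes, such as the ribosomal proteins (median length 708 bases) and S100 proteins (715), and of long genes, such as kinesins (4850), are touched by this trend. When the median difference of genes of similar length was subtracted, 684 genes were higher in B16-F1 and 874 in 4T1, chromosome 6 kept a median of 0.81, and 17 of the 19 lists with a median beyond 1 stayed beyond it. The part of length in the other results was not tested.

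**Figure D5:**
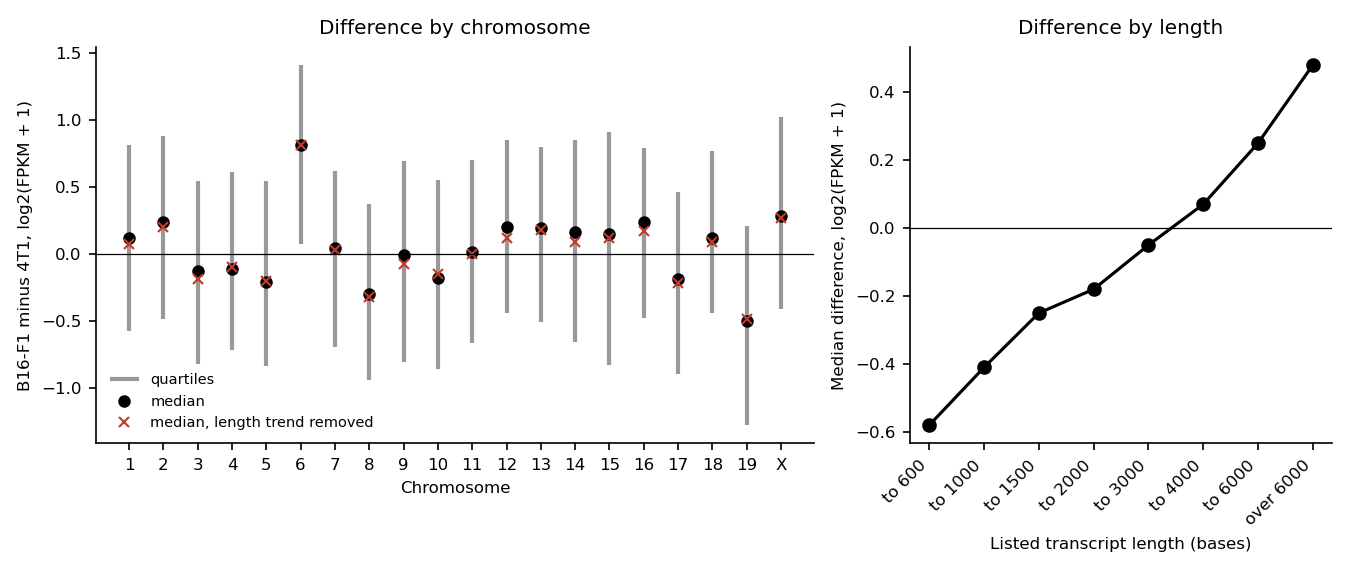
The left panel gives the median difference (B16-F1 minus 4T1, log2(FPKM + 1)) per chromosome with quartiles as bars, and crosses after the length trend was removed. Chromosome 6 stands highest at 0.81 and chromosome 19 lowest at -0.50. The right panel gives the median difference by listed transcript length, which goes from -0.58 for genes up to 600 bases to 0.48 for genes over 6000.

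Some abundant genes were alike in both lines. Among genes with a difference under 0.25, the highest were the elongation factor Eef1a1 (4811 in B16-F1 and 5504 in 4T1), the cyclophilin Ppia (3643 and 3790), the chaperone Hsp90ab1 (1448 and 1445) and the prion protein Prnp (1382 and 1395). Cd63, a tetraspanin of late endosomes and melanosomes, was also alike at 798 and 858.

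A few large differences rest on how reads were assigned to rows. Gapdh, a glycolytic enzyme, had 4591 in B16-F1 against 45.8 in 4T1. With the rows that carry no symbol but the same annotation added, it had 10079 and 6561, and the call was lost. This happened to 8 calls in all. Eno1b (not listed in B16-F1, 621 in 4T1) is a near copy of an enolase gene, and its level is uncertain. The predicted genes Gm13710, described in the tables as a retroviral gag-pol protein (687, not listed in 4T1), and AI506816, described as related to a murine leukaemia virus envelope (263 against 1.87), were high in B16-F1, and as members of repeated families their levels are uncertain.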

How the data were processed

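Messenger RNA was measured in 3 mouse lines, and the B16-F1 and 4T1 tables were used here, with 1 library each. The submitters' processing notes name HISAT, StringTie and mm10, without versions or roles, while the sources used here do not name the program that counted reads. Per the file headers, the authors deposited an expected count (an estimate that need not be whole, 88.9% and 88.4% of them whole within 0.005), an FPKM value and a length per gene. The authors' FPKM matched the table's own count total and length, with an implied total of 0.986 and 0.980 of it, as checked from the values.

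Genes were joined by symbol in Python 3.11.15 with pandas 2.3.3, numpy 2.4.6 and scipy 1.17.1. Differences are B16-F1 minus 4T1 in log2(FPKM + 1), with pseudocount 1, and understate folds of low genes. No test fits 1 library per line. Ratios have exact 95% conditional binomial intervals, which hold for counting error alone, since PCR copies are not independent molecules. For an unlisted gene the bound takes 3 counts. The ratio and the rule were tried on simulated counts with counting error alone, with changes set in well-counted genes listed by both tables. That trial does not cover changes in low or unlisted genes, or variation between libraries. Named genes are the 25 with the largest differences in each direction at FPKM 10 or more (predicted genes left out), the 6 most different members of a list (every member of lists of up to 12), members of runs, markers, and the 10 most abundant alike genes. A few genes that the rule picks are left out. The members and lists were chosen with earlier results of these data known. Annotation terms are the deposited ones. Positions and promoters came from RefSeq GRCm38.p6, matched by gene number for 11528 and 9312 genes compared. The first promoter entry of a gene was used. Its last 40 bases were found at the start of a GENCODE transcript for 1584 of 1913 genes checked. Rows with no symbol (324 and 355) were left out unless stated. Of these 162 and 170 could be given to 1 named gene by orthology number or description.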

Additional observations from a re-analysis of the deposited data

Results flagged for a closer look

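Rows with no symbol lie outside the comparison, and they held signal in both libraries: 2.36% of the expected counts in B16-F1 and 4.32% in 4T1. They are transcripts that the authors assembled or that carry no gene name in the tables. With 1 library per line no sample could be set against others of its group, and no difference between groups of samples could be tested.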

How the results depend on the processing

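The 729 genes higher in B16-F1 and 858 higher in 4T1 stayed within 1.5 times under most settings. The exceptions were 1200 and 1338 with pseudocount 0.1, 305 and 396 with pseudocount 5, 1188 higher in B16-F1 under TPM, 2140 and 2180 with a difference of at least 1, and 344 and 463 with at least 3. Scaling expected counts to the library total gave 1063 and 1145, within that range. Of the 19 lists with a median beyond 1 in size, 2 stayed beyond it in all 11 alternatives (S100 proteins; keratinocyte, squamous and basal genes). With no filter on low values 15 fell below 1, and with pseudocount 5 this was 10. With no filter the medians of collagens and of potassium channels turned to 0.03 each. With rows that carry no symbol added, Rps6 turned to -1.98 and Mrpl27 to -0.58. Of the 514 named genes past the rule, 326 stayed past it with pseudocount 5, and 481 or more in every other setting that kept them. The removal of the length trend was chosen after seeing the data. No paired analysis was possible because each line has 1 library. Depth limits the low genes: an FPKM of 1 on 1 kilobase is about 9 reads.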
